A study of Mus musculus with 12 samples.

Results

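Replication-dependent histone genes encode the core histones H2A, H2B, H3 and H4 and the linker histone H1, which package newly copied DNA. In the 12 libraries of this deposit they are the gene rows whose symbol begins with Hist, a digit from 1 to 4 and the letter h. The rule found 68 of 24062 gene rows. By locus, 54 lie in Hist1 on chromosome 13, 10 in Hist2 on chromosome 3, 3 in Hist3 on chromosome 11 and 1 in Hist4 on chromosome 6 (GENCODE M21, GRCm38). By class, 6 encode H1, 18 H2A, 19 H2B, 12 H3 and 13 H4.

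Expression of these genes is tied to S phase, the part of the cell cycle in which DNA is copied, when the factor NPAT drives their transcription. Their mRNAs mostly lack a poly(A) tail and end in a short stem-loop, which is bound by the protein SLBP and is needed for 3′ end formation, translation and decay of the mRNA. Some histone genes also give polyadenylated mRNA, mainly in cells that do not divide.

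RNA-seq libraries of polyadenylated RNA were made from 12 mice, 3 in each of 4 groups, 1 library per mouse. The livers came from male FVB mice carrying LAP-tTA and TRE-MYC, in which the hepatocyte-directed LAP promoter drives human MYC from birth, when doxycycline is withdrawn (MYC-ON), and all 6 liver mice carried both alleles. For 21 days, mice 101, 102 and 103 ate the complete (control) diet, while mice 105, 107 and 108 ate a diet without the amino acid tryptophan (No-Trp). The tumors were HCC53N xenografts, grown from a single line of mouse liver cancer cells that lacks p53 and overexpresses mutant NRAS. The labels also name Myc as an origin of the line, while the study's methods name tumors of Alb-Cre, p53 fl/fl mice with mutant Nras and do not name Myc, so the sources differ here. They grew under the skin of NOD SCID hosts (NOD-SKID in the labels), females by the study's methods, fed for 21 days the control diet (mice 40, 41 and 43) or the No-Trp diet (mice 35, 36 and 37). RNA of the host's own cells in a tumor is counted with that of the tumor cells. Ages on the diets are not in the labels.

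The depth was 14660963 to 26085349 reads on genes per library, at which 3 reads of a gene are 0.115 to 0.205 CPM (counts per 1000000 reads on genes). The 68 genes took 0.00956% to 0.0353% of those reads, in all 1801 to 5248 reads per library. Livers 101 and 108 and control xenografts 41 and 43 bear a resubmission mark in the names of their deposited tables, the meaning of which is not given in the sources used here. Liver 101 stood apart, since Rn45s, the ribosomal RNA precursor, an RNA without a poly(A) tail, held 12.1% of its reads, against 2.22% in liver 102 and 0.261% to 0.758% in the other 10 libraries. Markers of hepatocytes (7 genes) summed to 10081 to 36197 CPM in control livers and 42778 to 82778 CPM in No-Trp livers, but only 346 to 912 CPM in xenografts. In bulk RNA, fewer cells of a type and less RNA per cell cannot be told apart. The study saw fewer and smaller tumors in MYC-ON livers after 21 days on the No-Trp diet. The part of tumor content in the liver values was not tested.

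The histone stem-loop was read from the GENCODE M21 transcripts to show which members carry it. Of 67 coding members, 54 have an annotated 3′ UTR, and in 46 of these the stem-loop lay 21 to 58 bases after the stop codon (median 31). It took 8 forms, printed below with the 6 paired bases of each stem in capitals and the 4 loop bases in lower case.
The form of 26 genes of H1, H2A, H2B and H3, among them Hist1h1c and Hist3h2ba: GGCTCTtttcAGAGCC
The form of 7 H4 genes, among them Hist1h4d and Hist1h4h: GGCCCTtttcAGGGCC
The form of 6 H1, H2B and H3 genes, among them Hist1h3e: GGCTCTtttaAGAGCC
Hist1h4i and Hist2h4: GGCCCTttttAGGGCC
Hist1h4b and Hist1h4j: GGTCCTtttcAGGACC
Hist1h4a: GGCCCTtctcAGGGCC
Hist1h3g: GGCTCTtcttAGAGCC
Hist2h2ac: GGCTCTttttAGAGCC
The H4 genes had stems of their own, which none of the H1, H2A, H2B and H3 genes shared. In 8 members with an annotated 3′ UTR no stem-loop was found. Among them, Hist1h2bc and Hist2h2be have long annotated 3′ UTRs (742 and 2192 bases). Those of Hist1h2af and Hist1h2ah (1 and 2 bases) are too short to hold it. Those of Hist2h3b and Hist1h1a (37 and 48 bases) may end before it. In 23 members a transcript ran more than 100 bases past the stem-loop, among them Hist1h1c, Hist3h2a and Hist4h4, which are also known to give polyadenylated mRNA. The presence of a stem-loop thus does not by itself separate members without a poly(A) tail from those with one.

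Upstream of the genes, 61 members matched a RefSeq promoter (GRCm38.p6, 250 bases before to 50 after the start), searched on both strands. TATAAA was in 57.4% of them and in 13.6% of all 32851 promoters, and CCAAT in 85.2% against 37.4%. CCAAT stood before all H1, H2A, H2B and H3 genes matched but before 3 of 12 H4 genes. The octamer ATTTGCAT was in 23.0% against 1.74%, namely before 7 of 17 H2A and 7 of 16 H2B genes and before none of the H1, H3 and H4 genes.

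The 67 coding members encode 30 distinct proteins, 6 of H1, 9 of H2A, 11 of H2B, 3 of H3 and 1 of H4. All H4 genes encode the same protein, and their coding sequences differ by synonymous changes, except those of Hist1h4m and Hist1h4n, which are identical to each other. Reads that align to several places were not counted by the authors, and 10 members had no read in any library (Hist1h2aa, Hist1h2ao, Hist1h2ap, Hist1h2ba, Hist1h2bq, Hist1h2br, Hist1h4m, Hist2h2aa1, Hist2h3c1 and Hist2h3c2). Of these, 6 have a coding sequence identical to that of another member, so their counts are uncertain. Hist1h2aa and Hist1h2ba are known for expression in testis, as is Hist1h1t, which reached 7 reads at most. A further 5 members, Hist1h1t included, had at most 10 reads in every library, and 13 members reached 100 reads in at least 1 library.

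**Figure D1:**
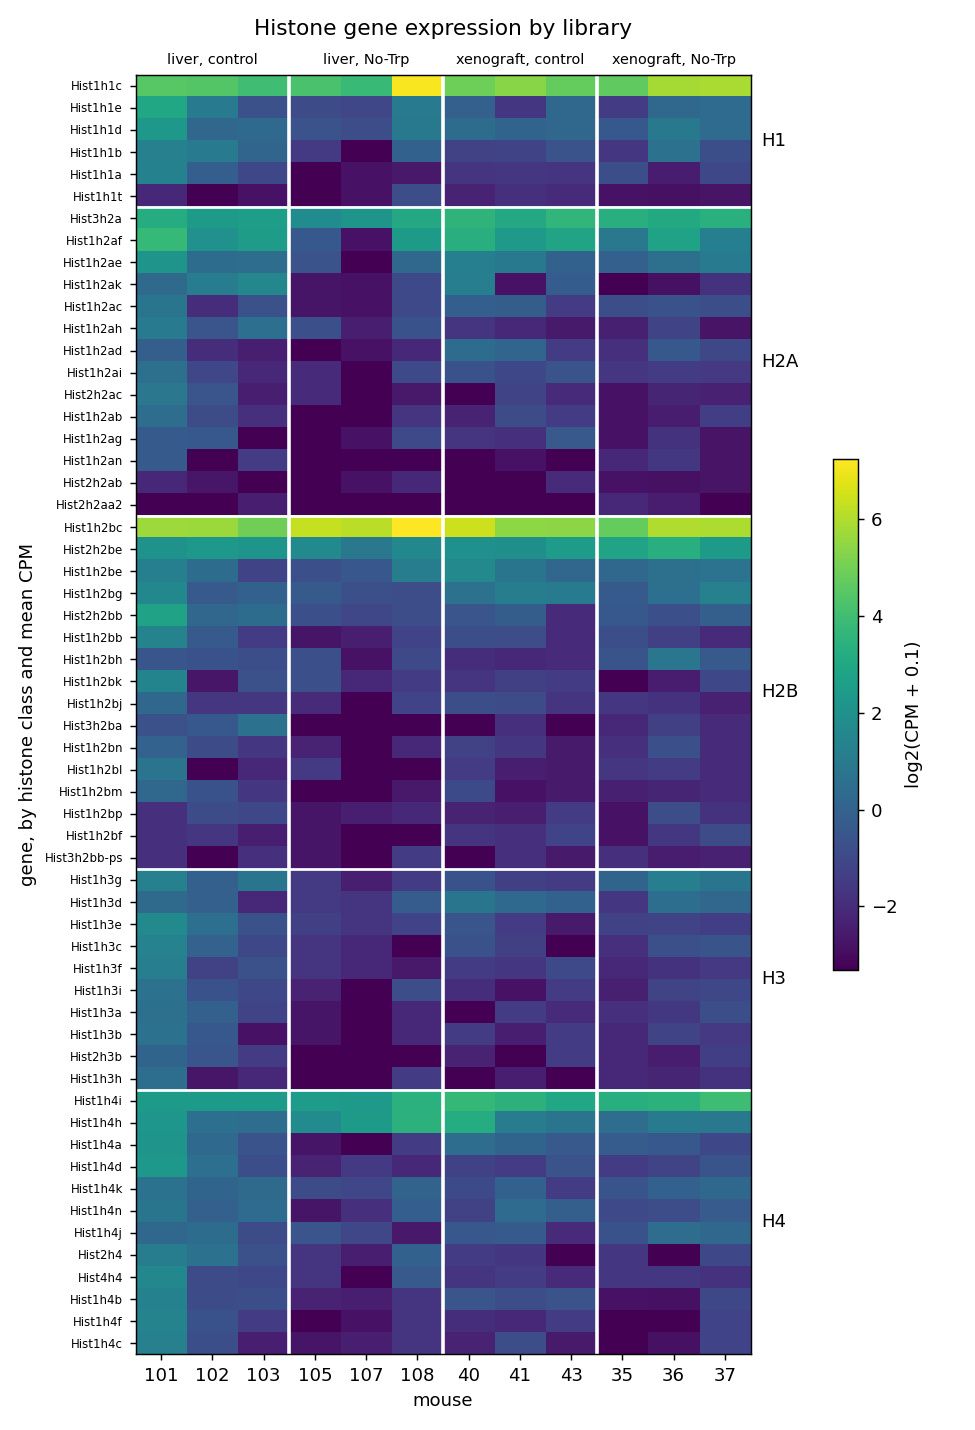
Level of the 58 histone genes with reads (rows, grouped by histone class and ordered by mean CPM) in the 12 libraries (columns, by mouse), as log2(CPM + 0.1). Hist1h1c and Hist1h2bc are the brightest rows in all 4 groups, and the column of liver 101 is bright in most rows of all 5 classes.

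Reads of the members were concentrated in few genes. Per length, the highest mean levels over the 12 libraries were those of Hist1h2bc, an H2B gene (55.2 RPKM, CPM per kilobase of transcript), and Hist1h1c, which encodes the linker histone H1.2 (54.8 RPKM). They were followed by the H4 gene Hist1h4i (21.9 RPKM), the H2A genes Hist3h2a (16.0 RPKM) and Hist1h2af (13.0 RPKM) and the H4 gene Hist1h4h (8.59 RPKM). In control livers Hist1h2bc was at 38.7 ± 10.6 RPKM and Hist1h1c at 27.9 ± 4.87 RPKM (SD, n = 3), neighbours whose SDs overlap. In No-Trp livers they were at 87.7 ± 38.7 and 80.1 ± 99.2 RPKM, the latter through liver 108 at 195 RPKM against 25.9 and 19.8 RPKM. In control xenografts they were at 50.3 ± 21.7 and 45.7 ± 10.8 RPKM, and in No-Trp xenografts the order turned, with 43.9 ± 18.02 and 65.4 ± 26.4 RPKM, again with overlapping SDs. The lengths are the shorter of the RefSeq span and the summed exons, so these levels are approximate for genes with several annotated ends.

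Of the genes known to give polyadenylated mRNA as well, 5 were listed (Hist1h1c, Hist1h2bc, Hist2h2be, Hist3h2a and Hist4h4, called the poly(A) list here). They held 43.2%, 64.8% and 60.2% of all member reads in control livers 101, 102 and 103. In No-Trp livers 105, 107 and 108 they held 85.2%, 85.2% and 86.6%, above every control liver. In control xenografts 40, 41 and 43 they held 69.4%, 71.2% and 72.1%, and in No-Trp xenografts 35, 36 and 37 they held 72.2%, 75.6% and 75.5%. The xenograft diets did not overlap either, but the lowest No-Trp and the highest control tumor lay side by side.

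The other 63 members summed to 121, 44.9 and 38.0 CPM in control livers 101, 102 and 103. In No-Trp livers 105, 107 and 108 they summed to 18.5, 15.9 and 47.2 CPM. The groups overlapped, since liver 108 lay above controls 102 and 103, and liver 101 lay far above the other controls. The log2 ratio of the group means (No-Trp over control) was −1.32, and without liver 101 it was −0.61. Among the unmarked libraries alone (102 and 103 against 105 and 107) it was −1.27, and in the resubmitted pair (101 against 108) it was −1.36.

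The classes differed in how far the diets separated in the livers. The 12 H3 genes summed to 17.99, 6.99 and 4.36 CPM in the controls and to 1.39, 0.758 and 2.42 CPM on the No-Trp diet, without overlap. Their log2 ratio was −2.68, and leaving out each mouse in turn gave −3.19 to −1.90. It was −2.40 among the unmarked livers and −2.89 in the resubmitted pair. The H2A genes outside the poly(A) list (29.5, 10.4 and 12.3 against 2.09, 0.337 and 9.15 CPM) and the H2B genes outside it (23.5, 6.72 and 6.56 against 3.38, 1.85 and 5.05 CPM) did not overlap either. H1 genes outside the list (17.7, 5.60 and 3.06 against 1.24, 0.926 and 5.18 CPM) and H4 genes outside it (32.7, 15.1 and 11.8 against 10.4, 11.999 and 25.4 CPM) overlapped between the diets. No test was made of these sums.

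**Figure D2:**
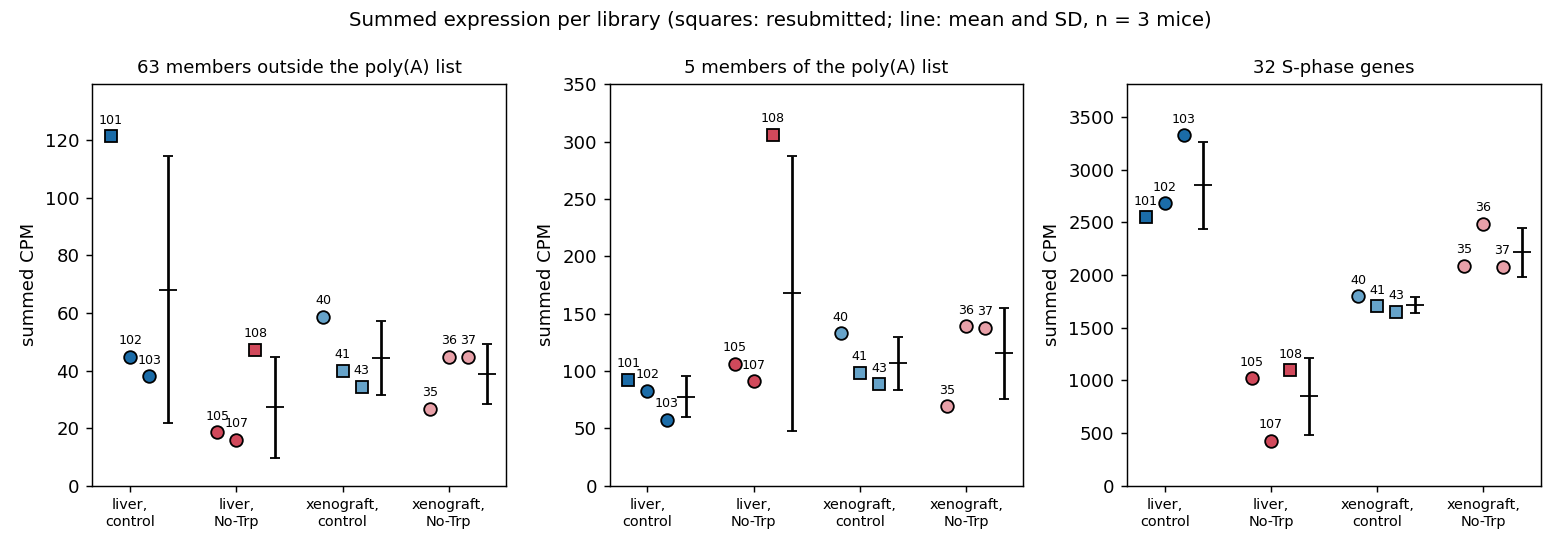
Summed CPM per library of the 63 members outside the poly(A) list, the 5 members of that list and 32 S-phase genes, by group; points are mice (squares, resubmitted libraries) and the bars give the mean and SD of 3 mice. Liver 101 stands at 121 CPM in the first panel, liver 108 at 306 CPM in the second, and the diets of the livers do not overlap in the third.

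The question for each gene was whether its reads differed between the control and No-Trp diets in MYC-ON livers. The libraries are of polyadenylated RNA and most member mRNAs lack a poly(A) tail. Counts and fold changes of members may therefore not follow the level of their mRNA, here and in the xenografts, and this was not tested. The test was edgeR's quasi-likelihood test with TMM scaling and a filter on low counts. Its p-value was adjusted by Benjamini and Hochberg over all genes past the filter. Genes were called where the adjusted p was at most 0.05 and the log2 fold change 1 or more in size. The filter left 29 of the 68 members. Of these, 1 was called higher on the No-Trp diet, where 9.28% of all 14122 genes tested were called higher, and 5 were called lower, where 7.27% of all genes were. Of the 29 members, 17 passed with all 3 controls, but not all 3 No-Trp livers, above the filter's level. The filter itself thus favours members that are high in controls. All 5 members called lower are among these 17, so the filter favoured their calls too. The counts called, the median and the adjusted p of these 5 genes are given as a description only. The median log2 fold change was −1.64 over these 29 members, also with a gene at 0 on the No-Trp diet set to its bound, and −0.003 over all genes tested. Without the filter 58 members with reads were fitted, and 1 was higher and 8 were lower, where 6.51% and 5.12% of all 18881 genes were called, with a member median of −2.10. In 8 of the 29 members all No-Trp livers lay below all control livers, as in 24.3% of all genes tested, and in 2 they lay above, as in another 24.3% of all genes.

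Leaving out a mouse removed calls from the members and from the whole table alike. Without liver 101 no member was called (edgeR, 6 at an unadjusted p under 0.05), where 178 genes of the whole table were higher and 116 lower, and the member median rose to −0.55. Without control 103 no member was called (19 at an unadjusted p under 0.05), where 7 genes were higher and 1 lower in the whole table, and the member median was −2.32. Without No-Trp liver 105 no member was called (14 at an unadjusted p under 0.05), where 298 genes were higher and 70 lower, and the median was −1.88. Without liver 107 there was 1 lower. Without control 102 there were 1 higher and 8 lower, and without liver 108 there were 0 higher and 6 lower. DESeq2 called 2 higher and 17 lower of 58 members with reads, where 8.73% and 7.40% of all genes were called. With the Rn45s level as a covariate no gene of the whole table was called and the member median was −0.19, with 7 members at an unadjusted p under 0.05. Rn45s itself was at 49616 ± 62155 CPM in control livers and 3892 ± 1854 CPM in No-Trp livers, and its part in the member values was not tested.

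The H2B gene Hist1h2bc (chromosome 13, 23684199 to 23692908, plus strand) was the member called higher. Its single annotated transcript is spliced, and no stem-loop was found in its 3′ UTR. It had 52.9, 50.7 and 30.7 CPM in control livers 101, 102 and 103 and 80.7, 70.7 and 153 CPM in No-Trp livers 105, 107 and 108, with every No-Trp liver above every control. The log2 fold change was 1.43 (standard error SE = 0.35, edgeR adjusted p = 0.0296). Leaving out each mouse in turn gave 1.09 to 1.62, but the gene was called in 1 of those 6 fits (without control 102), the adjusted p being 0.0311 to 0.094.

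Other members of the poly(A) list did not pass the test in livers. Hist1h1c (chromosome 13, 23738808 to 23740367, plus strand) had 23.0, 21.4 and 16.2 CPM in the controls and 18.8, 14.4 and 141 CPM on the No-Trp diet. Liver 108 alone was high, and the log2 fold change of 1.72 (SE 0.82, edgeR adjusted p = 0.158) was as low as 0.04 with a mouse left out. The H2A gene Hist3h2a (log2 fold change −0.10, SE 0.41), which overlaps Trim17 on the same strand, and the H2B gene Hist2h2be (−0.48, SE 0.27) did not pass either (edgeR adjusted p = 0.872 and 0.222). Hist2h2be, in whose long 3′ UTR no stem-loop was found, had 4.22, 4.84 and 4.31 CPM in controls and 3.18, 1.81 and 2.96 CPM in No-Trp livers, without overlap. The H4 gene Hist4h4 was below the filter, with 69, 8 and 9 reads in the controls and 4, 0 and 10 on the No-Trp diet.

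**Figure D3:**
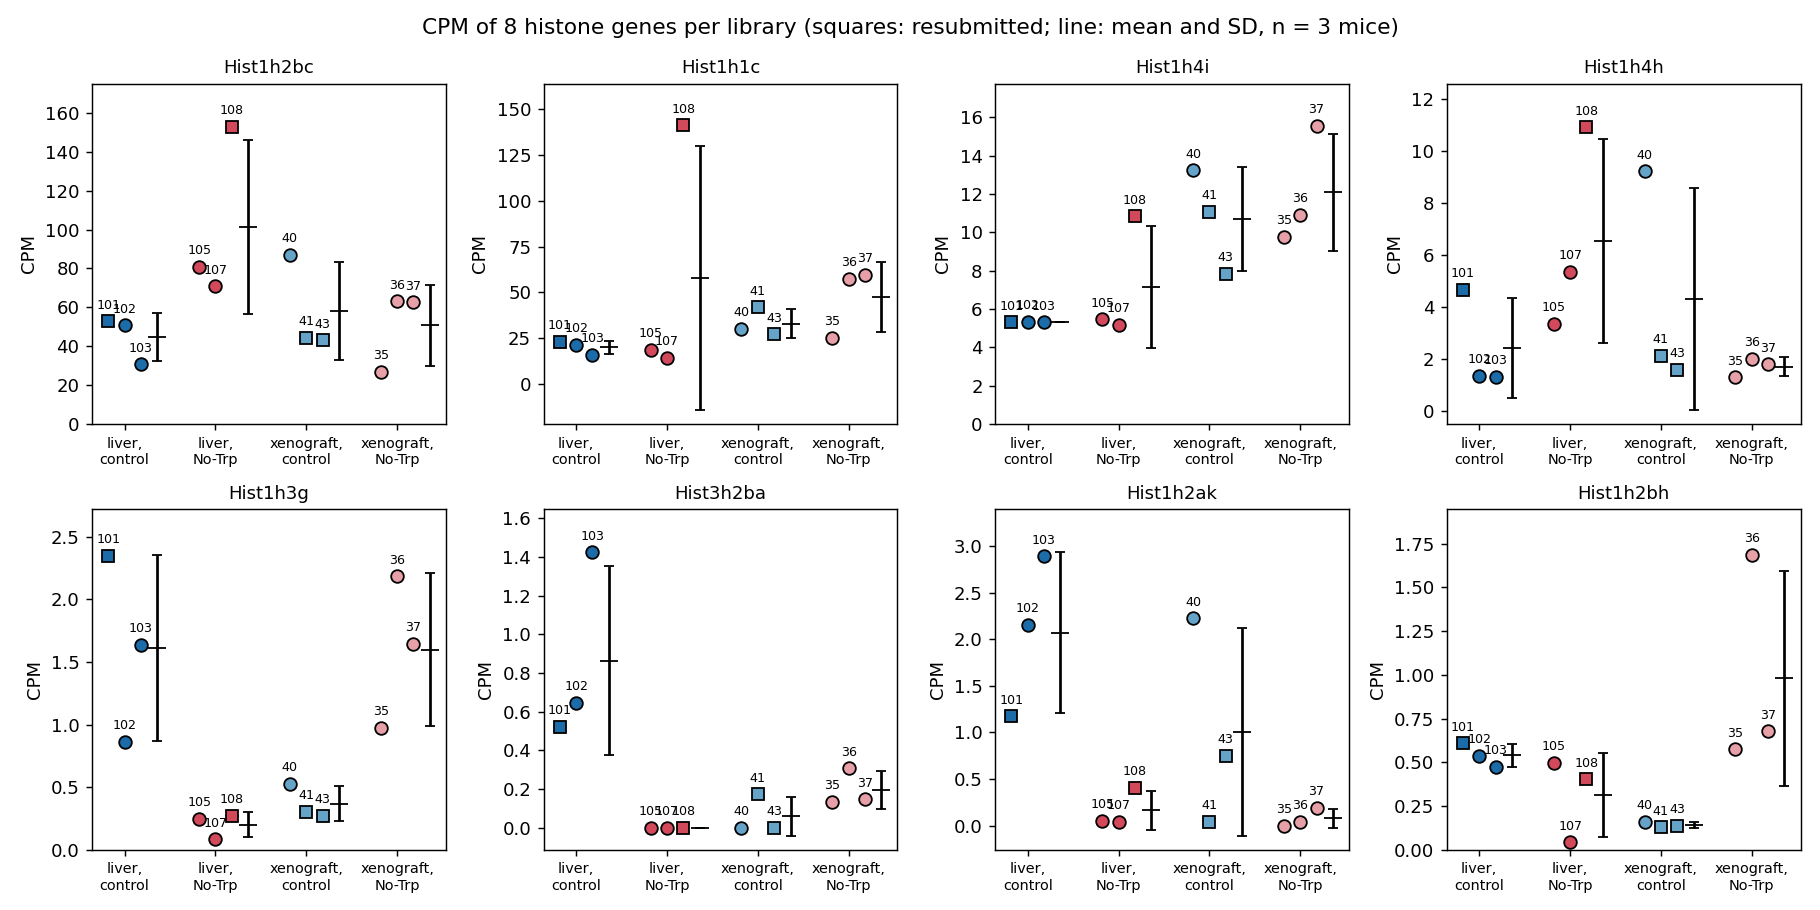
CPM of 8 histone genes in every library; points are mice (squares, resubmitted libraries) and the bars give the mean and SD of 3 mice per group. Hist1h1c stands at 141 CPM in liver 108 and below 60 CPM in the other 11 libraries, Hist3h2ba has no read in No-Trp livers, and Hist1h3g is low in No-Trp livers and in control xenografts.

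The H2B gene Hist3h2ba (chromosome 11, 58948920 to 58949533, plus strand) had 12, 12 and 33 reads in control livers 101, 102 and 103 and no read in the 3 No-Trp livers. Against a floor of 3 reads over the No-Trp group it was at least 16.9-fold lower on the No-Trp diet (edgeR adjusted p = 0.0218). Its control level was lowest in liver 101 (0.522 CPM, against 0.646 and 1.42 CPM), unlike that of most members. It was called in 3 of 6 fits with a mouse left out, and lost without livers 101, 103 or 105 (edgeR adjusted p = 0.0583, 0.088 and 0.0574).

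The H3 gene Hist1h3g (chromosome 13, 23535422 to 23535951, plus strand) had 54, 16 and 38 reads in the controls, or 2.35, 0.861 and 1.64 CPM. On the No-Trp diet it had 5, 2 and 4 reads, or 0.249, 0.0842 and 0.269 CPM, without overlap. The log2 fold change was −2.77 (SE 0.60, edgeR adjusted p = 0.0239). With a mouse left out it was −3.08 to −2.32, and it was called in 2 of the 6 fits, the adjusted p being 0.0115 to 0.0884.

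The H2A gene Hist1h2ak (chromosome 13, 21753435 to 21753827, minus strand) had 27, 40 and 67 reads in the controls and 1, 1 and 6 on the No-Trp diet. Liver 101 again held the lowest control level, 1.17 CPM against 2.15 and 2.89 CPM. The log2 fold change was −3.48 (SE 0.75, edgeR adjusted p = 0.0242), called in 2 of 6 fits with a mouse left out. The gene overlaps Gm44454 on the other strand, and reads of the pair cannot be told apart here, since a strand setting is not given in the sources used here.

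The H4 genes Hist1h4a (chromosome 13, 23760692 to 23761230, minus strand) and Hist1h4d (chromosome 13, 23581598 to 23582735, plus strand) were the other two called lower. Hist1h4a had 100, 21 and 13 reads in the controls and 1, 0 and 4 on the No-Trp diet. Hist1h4d had 111, 25 and 11 reads against 2, 6 and 2. In both genes liver 101 held most of the control reads, and each was called in 1 fit with a mouse left out (without control 102). Their log2 fold changes were −4.20 (SE 1.21, edgeR adjusted p = 0.044) and −3.42 (SE 1.03, edgeR adjusted p = 0.0494), and without liver 101 that of Hist1h4a was −2.83 (adjusted p = 0.112) while Hist1h4d was below the filter.

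Of the 10 members with the most reads, the remaining 6 were not called by edgeR in livers, and DESeq2 called 1 of them, Hist1h4h, higher (adjusted p = 0.037). The H4 gene Hist1h4i was level in the controls (5.30, 5.33 and 5.31 CPM) and had 5.47, 5.18 and 10.8 CPM on the No-Trp diet (log2 fold change 0.70, edgeR adjusted p = 0.134). The H4 gene Hist1h4h had 4.65, 1.34 and 1.29 CPM in controls and 3.33, 5.35 and 10.9 CPM on the No-Trp diet (log2 fold change 1.65, edgeR adjusted p = 0.108). The H2A gene Hist1h2af had 13.7, 4.03 and 5.43 CPM in controls and 0.647, 0.0421 and 5.38 CPM on the No-Trp diet (log2 fold change −1.82, edgeR adjusted p = 0.284), and it overlaps Gm44297 on the other strand. The linker histone gene Hist1h1e (7.997, 1.88 and 0.518 against 0.448, 0.379 and 1.95 CPM) and the H2A gene Hist1h2ae (4.35, 1.24 and 1.29 against 0.547, 0 and 1.08 CPM) were highest in liver 101. The H2B gene Hist1h2be, whose annotated span overlaps that of Hist1h1e on the same strand, had a log2 fold change of −0.05.

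**Figure D4:**
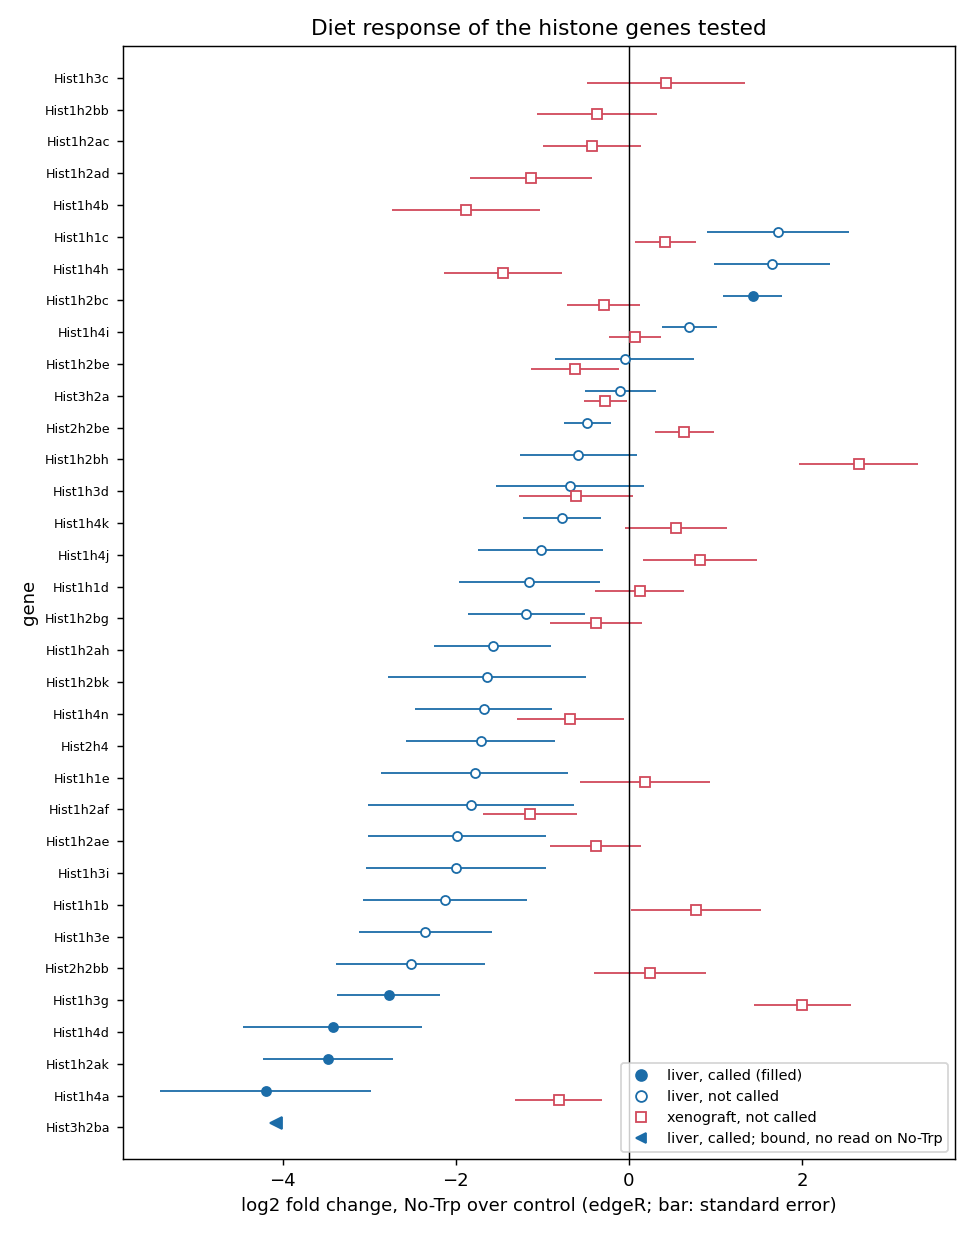
log2 fold change of No-Trp over control with its standard error for each histone gene that passed the filter, in livers (circles) and xenografts (squares); filled marks were called, and the triangle is the bound for Hist3h2ba, which had no read on the No-Trp diet. In livers 25 of 29 genes lie below 0, and 17 of the 29 passed the filter through the controls alone; no xenograft mark is filled.

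Most members outside the poly(A) list were highest in liver 101. Of the 53 members outside the poly(A) list with reads in livers, 42 had their highest CPM of the 6 livers in liver 101, against 5 in liver 108, 3 each in livers 102 and 103 and none in livers 105 and 107. Of 32 S-phase genes, a list of replication enzymes and licensing factors, 6 were highest in liver 101 and 24 in liver 103. Rpph1 and Rmrp, RNAs made by RNA polymerase III without a poly(A) tail, were at 85.3 and 87.4 CPM in liver 101, at 10.9 and 11.997 CPM in liver 102 and at most at 2.02 CPM in the other livers. Of 12 listed RNAs without a poly(A) tail, 4 passed the filter in livers and none was called (edgeR; 3 at an unadjusted p under 0.05; DESeq2 called 3 of 7 with reads lower), with a median log2 fold change of −4.26. The 119 small nucleolar and Cajal body RNAs summed to 130, 73.7 and 96.7 CPM in controls and to 51.6, 26.1 and 57.9 CPM on the No-Trp diet. Erythroid markers summed to 53.5 CPM in liver 101, to 554 and 412 CPM in livers 102 and 103, and to 16.6 to 25.2 CPM on the No-Trp diet, with 5 of 12 (all globin genes) at 0 in livers. The part of any of these in the member values was not tested. Per 100 S-phase reads, the members outside the poly(A) list had 4.76, 1.67 and 1.14 reads in the controls and 1.81, 3.70 and 4.31 reads in No-Trp livers 105, 107 and 108, and the diets overlapped.

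**Figure D5:**
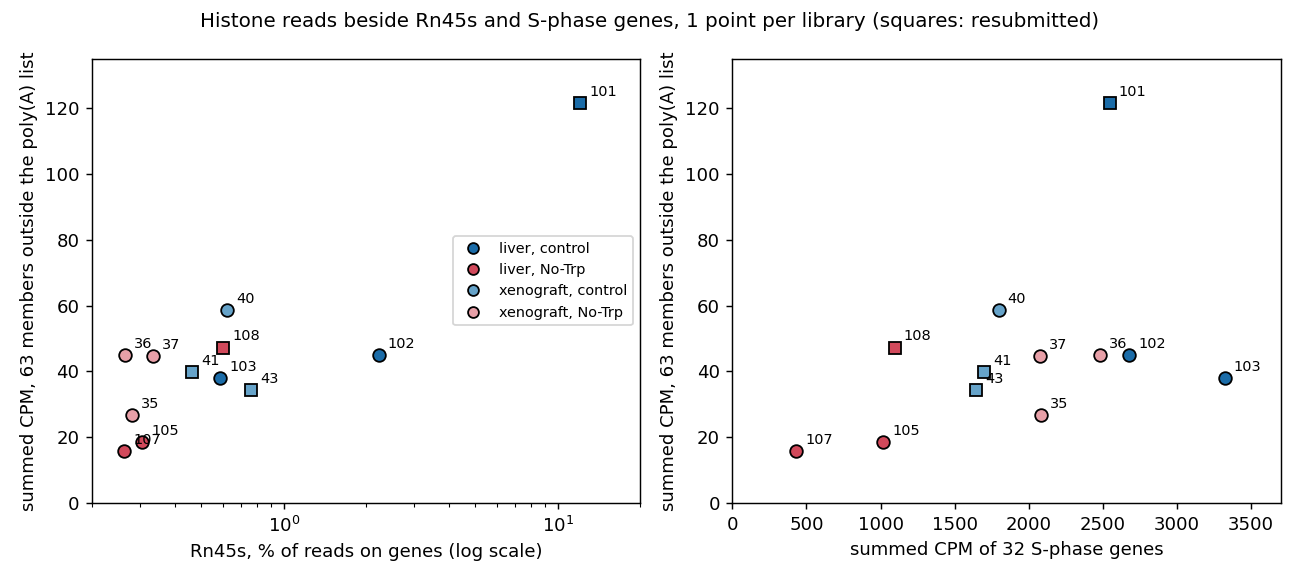
Summed CPM of the 63 members outside the poly(A) list against the Rn45s share of reads (left, log scale) and against the summed CPM of 32 S-phase genes (right), 1 point per library (squares, resubmitted). Liver 101 stands apart at 12.1% Rn45s and 121 histone CPM, while its S-phase sum of 2548 CPM is the lowest of the 3 control livers.

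Many genes that act with the histones were lower in bulk RNA of No-Trp livers, and the part of tumor content in this was not tested. Of the 32 S-phase genes, 26 were called lower and none higher, where 7.27% and 9.28% of all genes tested were. Their median log2 fold change was −1.70. Their sums of 2548, 2679 and 3324 CPM in controls did not overlap with 1020, 429 and 1097 CPM on the No-Trp diet. Pcna, the sliding clamp of the replication fork, fell from 213 ± 27.9 to 72.3 ± 23.2 CPM (SD, n = 3), and Cdc6, a licensing factor, from 40.3 ± 5.80 to 5.87 ± 3.34 CPM. Pola1 and Prim1, subunits of DNA polymerase alpha-primase, had log2 fold changes of −1.72 and −1.74 (edgeR adjusted p = 0.0171 and 0.0186). Without liver 101 only 2 of the 32 genes were called, without control 103 none and without liver 105 only 1 (edgeR), though 27 of 32 had an unadjusted p under 0.05 in each of these fits and the medians were −1.62, −1.62 and −1.79.

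Of 18 genes for histone mRNA synthesis and processing, 5 were called lower and none higher in livers, where 7.27% and 9.28% of all genes were. Slbp, which binds the stem-loop, fell from 61.3 ± 6.64 to 21.3 ± 4.05 CPM (SD, n = 3; log2 fold change −1.24, SE 0.15, edgeR adjusted p = 0.0127). Lsm11, a part of the U7 particle that directs cleavage after the stem-loop, had a log2 fold change of −1.28, Cstf2, a cleavage factor, −1.04, and Coil, the Cajal body protein coilin, −1.13 (edgeR adjusted p = 0.0171, 0.0213 and 0.0331). Npat, the transcriptional coactivator of the histone genes, had a log2 fold change of −0.75 (edgeR adjusted p = 0.0287), short of the threshold on its size.

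Of 16 histone chaperones, 8 were called lower and none higher in livers, where 7.27% and 9.28% of all genes were. The chaperone list shares Mcm2 with the S-phase list. The chaperones called lower include Chaf1a of the chromatin assembly factor (log2 fold change −1.89), Nasp, an H3 and H4 chaperone (−1.34), Supt16 of the FACT complex (−1.05) and Hat1, a histone acetyltransferase (−1.02), with edgeR adjusted p = 0.0182 to 0.0207. Of 11 genes listed as replication-independent histones, whose mRNAs are mostly polyadenylated, 4 were lower and 1 was higher, where 7.27% and 9.28% of all genes were. H2afx and H2afz, which encode H2A.X and H2A.Z, fell from 123 ± 19.3 to 33.6 ± 17.1 CPM and from 455 ± 64.2 to 161 ± 76.1 CPM (SD, n = 3; edgeR adjusted p = 0.0244 and 0.0324). H1fx, a linker histone variant, had a log2 fold change of −2.37 and H2afy2, a macroH2A gene, one of 1.36 (edgeR adjusted p = 0.0362 and 0.0392). Without liver 101, 3 processing genes, 1 chaperone and 0 replication-independent genes were called (edgeR; 14, 14 and 6 at an unadjusted p under 0.05). Without control 103 none of the 3 lists held a call (11, 14 and 6 at an unadjusted p under 0.05), and without liver 105 only 2 processing genes did (13, 13 and 5). Without liver 107 there were 3, 7 and 3 and without liver 108 there were 5, 8 and 2 called.

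In xenografts the same question found no member past the test. Of 26 members that passed the filter, none was called (edgeR; 2 at an unadjusted p under 0.05; DESeq2, none), where 0.360% of all 14704 genes were called in either direction. The median log2 fold change was −0.28, against −0.004 over all genes. The groups did not overlap in 4 members, as in 22.6% of all genes. None was called in any of the alternatives, the 6 fits with a mouse left out included. The 63 members outside the poly(A) list summed to 58.7, 39.9 and 34.3 CPM in control xenografts 40, 41 and 43 and to 26.6, 44.9 and 44.7 CPM in No-Trp xenografts 35, 36 and 37, which overlapped. Rn45s was at 6141 ± 1470 CPM on the control diet and 2915 ± 371 CPM on the No-Trp diet (SD, n = 3), and the diets did not overlap.

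The members with the smallest p in xenografts were both higher on the No-Trp diet. The H2B gene Hist1h2bh had 3, 3 and 2 reads in control xenografts 40, 41 and 43 and 13, 44 and 14 reads in No-Trp xenografts 35, 36 and 37 (log2 fold change 2.65, SE 0.68, edgeR adjusted p = 0.13). Hist1h3g had 10, 7 and 4 reads against 22, 57 and 34 (log2 fold change 2.00, SE 0.56, edgeR adjusted p = 0.151). Hist1h2bc (−0.29), Hist1h1c (0.42), Hist1h4i (0.07), Hist3h2a (−0.27) and Hist2h2be (0.64) had small log2 fold changes and adjusted p of 0.38 or more. Control xenograft 40 stood above the other controls in Hist1h4h (9.21 CPM against 2.11 and 1.57 CPM), Hist1h2bc (87.1 CPM against 44.2 and 43.1 CPM) and Hist1h2ak (2.22 CPM against 0.0431 and 0.75 CPM).

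The lists of related genes held no call in xenografts either. None of 32 S-phase genes, 18 processing genes, 16 chaperones and 11 replication-independent histone genes was called (edgeR; 8, 2, 5 and 4 at an unadjusted p under 0.05; DESeq2 called 1 S-phase gene higher), and the median log2 fold changes were 0.29, 0.04, 0.00 and −0.19. Summed S-phase reads were 1648 to 1798 CPM on the control diet and 2077 to 2484 CPM on the No-Trp diet, without overlap, in the opposite direction to the livers. Slbp had 55.6 ± 3.14 CPM on the control diet and 64.6 ± 8.36 CPM on the No-Trp diet (SD, n = 3; edgeR adjusted p = 0.758). Of other cell types, adipocyte markers moved, with 2 of 4 called higher and sums of 12.3 to 71.9 CPM in control xenografts and 403 to 838 CPM in No-Trp xenografts, and their part in the member values was not tested. Macrophage (6), lymphocyte (5), endothelial (5) and fibroblast (5) markers held no call in xenografts (edgeR; 1, 0, 0 and 1 at an unadjusted p under 0.05; DESeq2 called 1 fibroblast marker). In livers 1 endothelial and 1 fibroblast marker were called higher, 1 adipocyte and 4 erythroid markers lower, 3 hepatocyte markers higher and none of the macrophage and lymphocyte markers (edgeR; 2 and 0 at an unadjusted p under 0.05).

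Whether the diet response differed between the models was tested with the interaction term of 1 fit over all 12 libraries, in which 39 members passed the filter. The response was more positive in xenografts in 5 members, where 6.70% of all 15472 genes were called in that direction, and more negative in none. The member median was 1.62, against 0.034 over all genes. A member could pass this filter through the control livers alone, as Hist3h2ba did, or through the No-Trp xenografts alone. Either way favours a positive difference, and Hist1h3g was higher in both of these groups than in the others. The count, the median, and the adjusted p and calls of the genes named below are therefore a description only. The median was −0.60 over the 7 members with at least 10 counts in every library, and 1.98 over 58 members without the filter. Hist1h3g had the smallest adjusted p of the members (log2 difference 4.80, SE 0.84, edgeR adjusted p = 0.00806), and it was called in all 12 fits with a library left out. The linker histone gene Hist1h1a, with 55, 15 and 9 reads in control livers against 0, 1 and 1 on the No-Trp diet and 2 to 11 reads in the xenografts, had a log2 difference of 5.15 (edgeR adjusted p = 0.0323). Hist1h2bh and the H3 gene Hist1h3a had log2 differences of 3.26 and 4.67 (edgeR adjusted p = 0.0476 and 0.0499), called in 0 and 2 of those 12 fits. Hist3h2ba was called too (edgeR adjusted p = 0.0192), with 4, 0 and 0 reads in control xenografts 41, 43 and 40 and 3, 8 and 3 in No-Trp xenografts. Without liver 101, 2 members were more positive and 1 was more negative. Each other library left out gave 2 or 3 more positive members and none more negative, except liver 108, without which there were 5.

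Tissue, host, sex and cell genotype differ together between the models and cannot be told apart. On the control diet, 13 of the 39 members were called lower in xenografts than in livers and none higher, where 20.2% of all genes were called lower (edgeR; the member median was −1.29). Here too a member could pass the filter through the control livers alone, which favours lower values in xenografts, so these are a description only. With at least 10 counts in every library 0 of 7 members were lower (median 0.49). Without the filter 13 of 58 were (median −1.45). Without liver 101, 3 were lower and 1 was higher, with a median of −0.22, without control 103, 22 were lower, and without control xenograft 43, 8 were lower and 1 was higher. Hist1h2ah, an H2A gene picked after its values were seen because its adjusted p was the smallest, had a log2 difference of −3.30 (SE 0.83, edgeR adjusted p = 0.0044). Hist1h2bc, Hist1h1c, Hist2h2be and Hist3h2a had log2 differences of 0.19, 0.54, −0.19 and 0.46, with adjusted p of 0.273 or more.

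By their annotated 3′ ends, the tested members fell into classes of few genes. Of 16 with a transcript that runs more than 100 bases past the stem-loop, 14 had a negative log2 fold change in livers (median −1.17). Of the other 13, 11 were negative. These 13 are 4 with a stem-loop and at most 100 bases past it (median −1.66), 4 with a 3′ UTR and no stem-loop found (−1.03) and 5 with no annotated 3′ UTR (−2.12). The second class includes Hist1h2af and Hist1h2ah, whose annotated 3′ UTRs of 1 and 2 bases are too short to hold a stem-loop. Since 17 of the 29 tested members passed the filter through the controls alone, negative values were favoured in every class, and nothing is drawn from these counts.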

How the data were processed

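The authors deposited 1 table of raw read counts per gene for each mouse. By the study's methods and the submitters' processing notes, polyadenylated RNA was sequenced by a provider, reads were trimmed with Trim Galore, aligned to mm10 with STAR 2.7.2b, handled with SAMtools 1.9 and counted with HTSeq. The strand setting is not given in the sources used here. The 5 closing lines of each table (reads without a gene, ambiguous or aligned to several places, 24.7% to 39.4% of all) were left out.

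The counts were tested with edgeR 4.0.16 (TMM, filterByExpr, robust quasi-likelihood) in R 4.3.3, separately for livers and xenografts, and in 1 fit of 12 libraries for the interaction and the models. All genes past the filter were fitted, and p-values were adjusted over all of these. The procedure was tested on simulated data. DESeq2 1.42.0, other scalings, filters and covariates, and leaving out each mouse, were the alternatives. Groups came from the labels. CPM is relative to all reads on genes, Rn45s included.

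The members and gene lists were chosen with earlier results of these data known. Named members are those called for diet (up to 8 a direction), the 10 with the highest mean CPM, the 5 with the smallest interaction p and the poly(A) list. Other genes are, of each list but the markers, up to 4 called with the smallest adjusted p, and Slbp, Npat, Rn45s, Rpph1 and Rmrp. Stem-loops were searched in GENCODE M21 transcripts, promoters in RefSeq (GRCm38.p6), where 67 of 68 members matched a gene and 61 a promoter.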

Additional observations from a re-analysis of the deposited data

Results flagged for a closer look

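The diet effect differed between the models, by the interaction term of edgeR's fit over all 12 libraries, in 5 histone genes. A member could pass the filter of that fit through the control livers or the No-Trp xenografts alone, which favours positive differences. The values and calls below are therefore a description only. The log2 difference (diet effect in xenografts minus diet effect in livers) was 4.80 for Hist1h3g, 5.15 for Hist1h1a, 3.26 for Hist1h2bh and 4.67 for Hist1h3a. For Hist3h2ba the fitted difference was 8.58, a value that depends on the prior count because No-Trp livers had no read of it. With each library left out in turn, Hist1h3g was called in 12 of 12 fits, Hist3h2ba in 11, Hist1h1a in 4, Hist1h3a in 2 and Hist1h2bh in 0. Samples far from their own group were not tested for, since each group holds 3 mice.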

How the results depend on the processing

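Of the members called lower in No-Trp livers, 5 in the analysis reported, there were 17 with DESeq2, 8 with no filter on low counts, 12 with 1 fit over all 12 libraries, 0 with at least 10 counts in every library (7 members tested), 0 with the Rn45s level as a covariate and 0 in the libraries without the resubmission mark (10 members at an unadjusted p under 0.05), and 0 to 8 with a mouse left out. Of those called higher, 1 as reported, there were 2 with DESeq2, 2 with resubmission as a covariate, 0 with the Rn45s level as a covariate, 0 without the resubmitted libraries and 0 to 1 with a mouse left out. With the Rn45s covariate and in the libraries without the mark, no gene of the whole table was called, so the zeros there are not particular to histone genes. For the interaction, the 5 higher were 3 with no filter, 3 with Rn45s left out, 0 with at least 10 counts in every library and 2 to 5 with a library left out, and the 0 lower were 2 with DESeq2 and 0 to 1 with a library left out. For the models, the 13 lower were 0 with at least 10 counts in every library and 3 to 22 with a library left out, and the 0 higher were 1 with no threshold on the fold change, 1 with library totals and 0 to 1 with a library left out. In xenografts no alternative called a member. The cause was not tested, except that the count minimum leaves few members. Of the values of single genes, 1071 kept their direction and side of the threshold, 96 passed only as reported, 15 passed only under the alternative and 44 changed sign, none of them called as reported or under the alternative. With at least 10 counts in every library the member median also changed sign, over 7 members, to 0.69 in livers, −0.60 for the interaction and 0.49 for the models. With the Rn45s covariate the log2 fold change turned to 0.61 for Hist3h2a, 1.74 for Hist1h1e and 2.21 for Hist1h2be in livers, and to 0.078 for Hist1h2bc, −0.055 for Hist1h1c and 0.57 for Hist3h2a in xenografts. In xenografts Hist1h4i turned to −0.24 with resubmission as a covariate and −0.25 without resubmitted libraries, and Hist1h1e to −0.097 and −0.099. The marked xenografts, 41 and 43, are controls, so the mark and the diet partly go together. Without them mouse 40 is the only control xenograft. For the interaction library totals turned Hist1h2ak to 0.097 and Hist3h2a to 0.20, and resubmission as a covariate turned Hist3h2a to 0.16. Leaving out single libraries took values across 0. In livers Hist3h2a ranged from −0.46 to 0.25 and Hist1h2be from −0.84 to 0.74. In xenografts Hist1h2bc ranged from −0.48 to 0.13, Hist1h4i from −0.17 to 0.25 and Hist1h1e from −0.26 to 0.63. For the interaction Hist1h2ak ranged from −1.83 to 1.26, Hist1h1c from −1.70 to 0.41, Hist3h2a from −0.50 to 0.21, Hist1h2af from −0.15 to 3.17 and Hist1h2be from −1.33 to 0.26. For the models Hist1h2bc ranged from −0.23 to 0.39, Hist1h4a from −1.75 to 0.081, Hist1h2af from −0.60 to 0.55, Hist1h4h from −0.62 to 1.60, Hist1h2ae from −0.99 to 0.31 and Hist1h2be from −0.16 to 1.15. Scaling to library totals shifted the all-gene median log2 fold change to −0.30 in livers and 0.41 for the interaction, and that of the members in livers to −1.84. No paired analysis was possible because the groups share no replicate numbers. Scaling the sums by TMM and setting liver 101 against liver 108 were chosen after seeing the data. With TMM the liver log2 ratio of the 63 members outside the poly(A) list was −1.12. Most members have few reads, so that differences of low genes such as Hist3h2ba were detectable only where they were large, and counts of genes with identical copies are lower limits.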
